A study of Mus musculus with 5 samples.

Results

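The 7 genes Itga4, Itgb1, Itgb7, Itgal, Itgb2, Selplg and Cd44, which encode adhesion receptors that T cells use to leave the blood, were followed in 1482 T cells sorted singly from brain parenchyma (5 mice). They were taken by name, as receptors of the entry route, from the 15952 genes with a unique molecular identifier (UMI, a tag that counts 1 captured RNA molecule) in these cells, and all 7 were detected. Together they gave 5860 of the 3037170 UMIs in kept cells.

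Leukocytes leave a vessel by rolling on selectins, arresting through integrins and then crossing the wall. An integrin is a pair of an alpha and a beta chain, and neither chain reaches the surface alone in any amount. The alpha4 chain (Itga4) pairs with beta1 (Itgb1) to make VLA-4, a receptor for VCAM-1, or with beta7 (Itgb7) to make a receptor for MAdCAM-1 in the gut. The alphaL chain (Itgal) pairs with beta2 (Itgb2) to make LFA-1, a receptor for ICAM-1. Selplg encodes PSGL-1, the main ligand of P-selectin on T cells, and Cd44 encodes a hyaluronan receptor that is raised after antigen contact. Antibodies to the alpha4 chain are known to keep lymphocytes out of the central nervous system. Both beta1 and beta2 also pair with other alpha chains.

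The 2 groups were 3 mice given TAT-CRE, a cell-permeable Cre recombinase, and 2 mice given PBS, in each case into the cerebral ventricles. Every mouse carried the allele written Grl1loxP/loxP in the labels, aimed at the glucocorticoid receptor, and every mouse, those given PBS included, was exposed to foot shocks on consecutive days. Cells were sorted as CD45+CD11b-TCRβ+ on day 14 after the stress. The TAT-CRE mice, numbered 207, 208 and 215, were 18, 18 and 19 weeks old, and the PBS mice, 216 and 218, were 19 and 16 weeks old. The knockdown was aimed at the choroid plexus, which was left out of the tissue, so its extent there was not analysed here. In the T cells the receptor gene Nr3c1 gave a level of 323, 196 and 301 CPM (UMI counts scaled to equal library totals) in the TAT-CRE mice, against 352 and 395 CPM in the PBS mice. The labels do not say if animals were pooled, and each library was taken as 1 mouse.

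From TAT-CRE 207, 208 and 215 came 311, 303 and 298 kept cells, and from PBS 216 and 218 came 296 and 274, with medians of 993 to 1953 UMIs a cell for TAT-CRE and of 1410 and 2660 for PBS. TAT-CRE 208 was the shallowest library and stood apart in composition: ribosomal RNA genes took 28.3% of its UMIs, against 43.9% to 48.0% in the other 4. Levels are therefore CPM with spike-ins and the 4 ribosomal RNA genes left out of the total. Plate, amplification batch and mouse coincide here and cannot be told apart. The 9 T cell markers summed to 7284 to 7693 CPM in the TAT-CRE mice and to 7321 and 8751 CPM in the PBS mice. The 5 neutrophil markers and the microglial genes Tmem119, P2ry12 and Sall1 were at 0 UMIs in kept cells, and of the integrins the gate should exclude, Itgam (CD11b) had 2 UMIs.

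The genes lie on 6 chromosomes of mm10, by the GENCODE M21 annotation, in which all are protein coding. The alpha4 gene Itga4 spans chr2:79255426-79333123 on the plus strand and overlaps Cerkl on the other strand, which had 4 UMIs. Its beta partners are Itgb1 at chr8:128685654-128733200 on the plus strand and Itgb7 at chr15:102215995-102231944 on the minus strand. The LFA-1 chains are Itgal at chr7:127296260-127335138 and Itgb2 at chr10:77530252-77565708, both on the plus strand. Selplg lies at chr5:113818536-113832644 and Cd44 at chr2:102811141-102901665, both on the minus strand. Cd44 overlaps the small nuclear RNA gene Gm23731 on the other strand, which had 9 UMIs. The counts are from whole genes, so no isoform of Cd44 or of any other member can be read from them.

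Detection was sparse, and for Itga4, Itgb1 and Itgb2 a small part of the cells held most of the UMIs. Itga4 was found in 353 of 1482 cells (23.8%, exact 95% binomial interval 21.7% to 26.1%), with 1245 UMIs. The 99 cells with at least 5 Itga4 UMIs held 60.5% of them, and the highest cell had 22. Itgb1 was found in 319 cells (21.5%) with 1141 UMIs, of which 78 cells with at least 5 held 56.2%. Itgb7, the gut-type partner, was found in 155 cells (10.5%) with 411 UMIs.

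For LFA-1, Itgal was found in 246 cells (16.6%) and Itgb2 in 292 cells (19.7%), with 690 and 889 UMIs. The 65 cells with at least 5 Itgb2 UMIs held 53.4% of them, and the 45 such cells for Itgal held 41.6%. Selplg, the selectin ligand, had a UMI in 378 cells (25.5%), 72 of them with at least 5, and Cd44 in 157 cells (10.6%). Of all kept cells, 444 had no UMI of any of the 7 genes, 510 had a UMI of 1 gene, 314 of 2 and 214 of 3 to 6, and no cell had a UMI of all 7. The 20 wells that received no cell held 2 UMIs of Itga4, 2 of Itgb2 and 0 of the other 5 genes. UMI counts were not scaled to transcript length, so levels are compared between mice and cell classes and not between genes, and all intervals of counts cover counting error only.

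**Figure D1:**
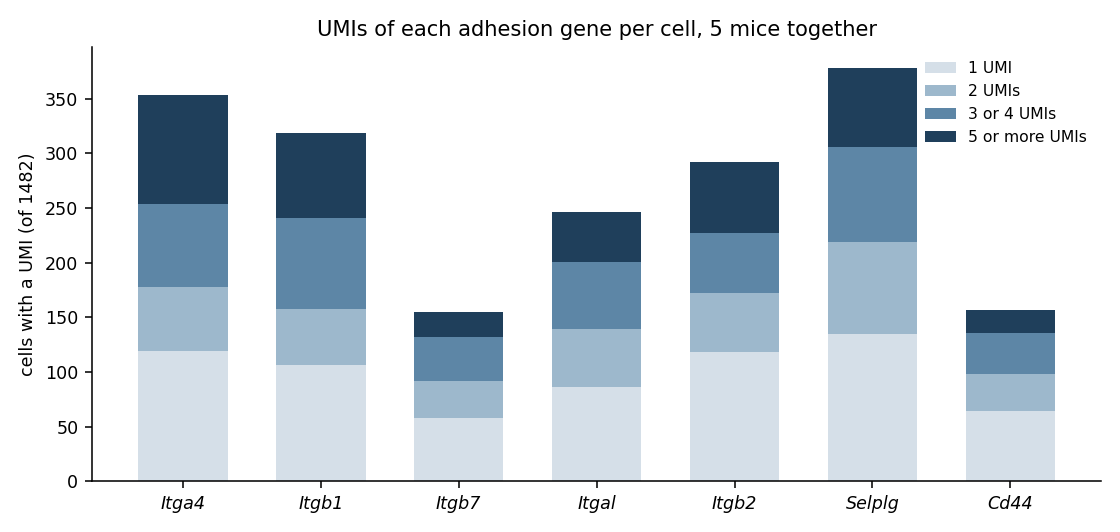
Number of kept cells (of 1482, 5 mice together) with a UMI of each adhesion gene, stacked by the number of UMIs in the cell. Cells with 5 or more UMIs numbered 99 for Itga4, 78 for Itgb1, 72 for Selplg, 65 for Itgb2, 45 for Itgal, 23 for Itgb7 and 21 for Cd44.

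Between TAT-CRE and PBS mice, the question was whether T cells in the brain after choroid plexus targeting differ in the receptors of the entry route. No member was called: 0 of the 7 genes passed edgeR's quasi-likelihood test with Benjamini-Hochberg adjustment at 0.05, and neither did any of the 6341 genes tested (0% called; 239 genes, 3.77%, had an unadjusted p under 0.05, and DESeq2 called 1). Of the members, 4 of 7 had a log2 fold change above 0, as had 50.2% of all genes tested, and the median was 0.00 for the members and 0.00 for all genes. In these sums over cells, fewer cells expressing a gene and less RNA per cell cannot be told apart.

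Itga4 varied most among the mice of 1 group. It stood at 1085, 369.6 and 494 CPM in the TAT-CRE mice, against 724 and 792 CPM in the PBS mice. The TAT-CRE mice lay on both sides of the PBS mice, with TAT-CRE 207 above both and the other two below, so the groups overlapped. The TAT-CRE group averaged 649 ± 382 CPM (SD, n = 3) and the PBS group 758 ± 48.2 CPM (SD, n = 2). By edgeR the log2 fold change was -0.21 ± 0.36 (SE; 95% interval -0.99 to 0.57; adjusted p = 0.999), and it was -0.80 without TAT-CRE 207 and 0.07 without TAT-CRE 208. Of the cells with at least 5 Itga4 UMIs, TAT-CRE 207 had 33, TAT-CRE 208 had 5 and TAT-CRE 215 had 11, against 19 in PBS 216 and 31 in PBS 218. Such cells held 60.5% of the UMIs behind these levels, so their order is not separate evidence. Their numbers are also not scaled to depth.

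Its partner Itgb1 stood at 904, 412 and 824 CPM in the TAT-CRE mice, against 508 and 616 CPM in the PBS mice. Again TAT-CRE 208 was below both PBS mice and the other TAT-CRE mice were above them. The log2 fold change was 0.35 ± 0.31 (SE; interval -0.31 to 1.02; edgeR adjusted p = 0.999). Itgb7 stood at 189, 296 and 229 CPM in TAT-CRE mice and 169 and 302 CPM in PBS mice, groups that overlapped fully, and its interval ran from -0.72 to 0.73.

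Over all kept cells, beta1 was the more frequent of the 2 beta chain UMIs in every mouse. The share of Itgb1 in the summed Itgb1 and Itgb7 UMIs was 82.7%, 58.2% and 78.3% in the TAT-CRE mice, against 75.0% and 67.1% in the PBS mice. The TAT-CRE group averaged 73.0% ± 13.1 (SD, n = 3) and the PBS group 71.1% ± 5.57 (SD, n = 2), a difference of 1.97 percentage points that was smaller than the spread between mice (two-sided exact permutation p = 0.9, where 0.1 is the smallest p that 3 against 2 mice allow). The sign of that difference turned in 4 of 8 alternatives. These shares rest on UMIs that were not corrected for the length or capture of the transcripts.

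Itgal was the only member whose groups did not overlap over all cells. It stood at 347, 219 and 379 CPM in the TAT-CRE mice, against 399 and 567 CPM in the PBS mice. All TAT-CRE mice were below both PBS mice, as for 9.38% of the 6341 genes tested (18.7% did not overlap in one direction or the other). The log2 fold change was -0.61 ± 0.30 (SE; interval -1.25 to 0.04; edgeR adjusted p = 0.999), and it was -0.34 without PBS 218 and -0.40 without TAT-CRE 208. Among CD8 cells alone it was -0.63 ± 0.34 (edgeR adjusted p = 1.00). The summed level of 5 natural killer cell markers, led by Eomes, was also lower in each TAT-CRE mouse, at 68.7 to 248 CPM, against 266 and 399 CPM in the PBS mice; its part in the Itgal difference was not tested.

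Itgb2, the beta chain of LFA-1, stood at 469, 512 and 562 CPM in TAT-CRE mice and 445 and 582 CPM in PBS mice, the narrowest spread of the 7 genes by ratio (1.31 from highest to lowest), with the PBS mice at both ends. Its log2 fold change was 0.00 ± 0.24 (SE; interval -0.52 to 0.53). Selplg stood at 610.4, 708 and 536 CPM in TAT-CRE mice and 578 and 716 CPM in PBS mice, with an interval of -0.56 to 0.43. Cd44 stood at 171, 319.5 and 324 CPM in TAT-CRE mice and 209 and 185 CPM in PBS mice, with TAT-CRE 207 below both PBS mice and the other two above them. Its log2 fold change was 0.46 ± 0.34 (SE; interval -0.28 to 1.20; edgeR adjusted p = 0.999).

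**Figure D2:**
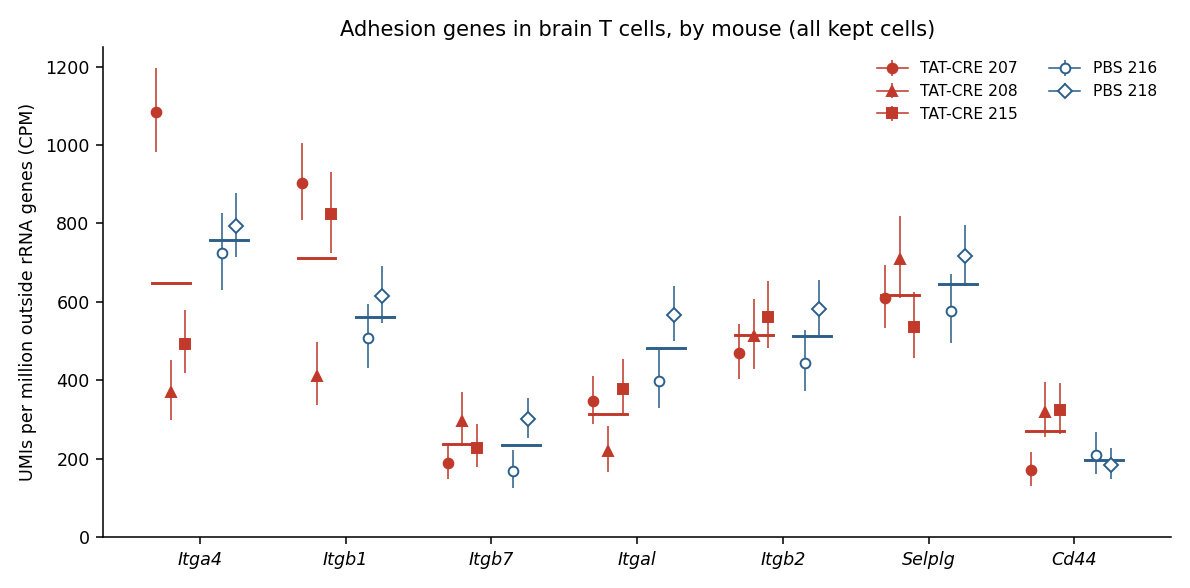
Level of each adhesion gene in every mouse, in CPM outside spike-ins and ribosomal RNA genes, with exact Poisson intervals (95%, counting error only) and group means as horizontal lines; TAT-CRE mice are filled and PBS mice open. Itga4 ran from 369.6 to 1085 CPM within the TAT-CRE group, and Itgal was the gene whose TAT-CRE mice (219 to 379 CPM) all lay below the PBS mice (399 and 567 CPM).

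The shares of cells with a UMI were also compared at equal depth, with an exact test that cannot go below 0.1 for 3 against 2 mice, so the p-values could not pass 0.05 whatever the shares. Each cell was thinned at random to 500 UMIs outside spike-ins and ribosomal RNA genes, which kept 270, 237 and 242 cells for TAT-CRE, against 231 and 268 for PBS. Itga4 then had a UMI in 16.0% ± 7.96 of TAT-CRE cells (SD, n = 3) and 19.0% ± 1.13 of PBS cells (SD, n = 2; two-sided exact permutation p = 0.7), and unthinned in 21.3% of TAT-CRE and 27.7% of PBS cells. Itgal had a UMI in 9.85% ± 1.63 of TAT-CRE cells and 13.2% ± 3.43 of PBS cells (exact permutation p = 0.2). Cd44 had a UMI in 7.89% ± 0.686 of TAT-CRE cells and 6.11% ± 1.77 of PBS cells (exact permutation p = 0.1, the smallest possible, adjusted p = 0.7 over the 7 genes). The other 4 genes had exact permutation p from 0.8 to 1.

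Among CD8 cells alone, taken as cells with a Cd8a or Cd8b1 UMI and no Cd4 UMI, no member was called between the groups either. Such cells numbered 174, 76 and 125 in the TAT-CRE group, and 134 and 121 in the PBS group. Again 0 of the 7 members and 0% of 4011 genes were called by edgeR (123 genes, 3.07%, had an unadjusted p under 0.05). A log2 fold change above 0 was seen for 6 of 7 members and 49.5% of all genes. Itga4 stood at 1169.6, 210.3 and 557 CPM in TAT-CRE mice and 562 and 719 CPM in PBS mice, an even wider spread within the TAT-CRE group than over all cells. Itgal stood at 338, 252 and 477 CPM in TAT-CRE mice and 499 and 621 CPM in PBS mice. All TAT-CRE mice were below both PBS mice, as for 9.52% of the 4011 genes tested in CD8 cells (17.8% did not overlap in one direction or the other).

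Lineage was compared within each mouse, CD8 cells against CD4 cells (a Cd4 UMI and no Cd8a or Cd8b1 UMI). CD4 cells were few, at 22, 19 and 23 for TAT-CRE and 13 and 8 for PBS, which limits every value for them. Cells with no UMI of Cd4, Cd8a or Cd8b1 were in neither class. With detection this sparse, the classes do not count all cells of a lineage. With the mouse as a block, edgeR called 2 of 728 genes (0.275%; 6.46% had an unadjusted p under 0.05), both higher in CD8 cells. They were Ccl5, a chemokine of cytotoxic T cells, at a log2 fold change of 2.17 ± 0.20 (SE, adjusted p = 1.4e-05), and Ly6c2, a surface protein of memory CD8 T cells, at 3.21 ± 0.48 (adjusted p = 0.00175). None of the 6 members tested passed, 5 of them had a log2 fold change above 0 (58.1% of all genes had), and 1 of them, Selplg, had an unadjusted p under 0.05. Cd44 did not pass the filter on low counts in these sums and was not tested.

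Selplg came nearest to a difference between the lineages. It stood at 689, 1108, 549.7, 593 and 878 CPM in the CD8 cells of TAT-CRE 207, 208 and 215 and PBS 216 and 218, against 345, 353, 323, 524 and 52.2 CPM in the CD4 cells of the same mice in the same order. It was higher in CD8 cells in 5 of 5 mice, and the CD8 values of all mice lay above the CD4 values of all mice. The gap was narrow, from 524 CPM in CD4 cells to 549.7 CPM in CD8 cells. The share of all tested genes with such a separation was not counted. The CD4 values rest on 11, 6, 9, 7 and 1 UMIs. The log2 fold change was 1.24 ± 0.46 (SE, interval 0.25 to 2.24). It did not pass edgeR's adjustment, which held the class-defining genes besides the 728 (adjusted p = 0.525). With no filter on low counts it passed (log2 fold change 2.06, edgeR adjusted p = 0.0213), in a fit where 57 genes were called. All 6 tested members had higher log2 fold changes in that fit, such as Itga4 at 0.95 and Itgb2 at 0.98, each 0.16 with the filter. The rise was thus not particular to Selplg. Over all alternatives the adjusted p of Selplg ran from 0.0213 to 0.842.

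For the integrin chains, Itgal was higher in CD8 than in CD4 cells in 4 of 5 mice, at means of 438 ± 144 CPM in CD8 cells and 218 ± 222 CPM in CD4 cells (SD, n = 5 mice). Its log2 fold change was 1.20 ± 0.73 (SE; edgeR adjusted p = 0.876), and 0.63 without PBS 218, whose CD4 cells held 0 Itgal UMIs (a count of 0 there allows up to 156 CPM, 3 counts). Itgb7 went the other way, with means of 212 ± 62.8 CPM in CD8 cells and 445 ± 319 CPM in CD4 cells. It was lower in CD8 cells in 4 of 5 mice, at a log2 fold change of -0.94 ± 0.66 (SE, edgeR adjusted p = 0.905). That value was -0.62 without TAT-CRE 208 and -0.13 with no filter on low counts, a fit in which every tested member rose. The exception was PBS 216, whose 13 CD4 cells held 0 Itgb7 UMIs (up to 224 CPM).

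Itga4, Itgb1 and Itgb2 had log2 fold changes of 0.16, 0.55 and 0.16 between CD8 and CD4 cells, with SE from 0.38 to 0.47. Itga4 was higher in CD8 cells in 2 of 5 mice, Itgb1 in 4 and Itgb2 in 3. Cd44 averaged 185 ± 42.3 CPM in CD8 cells and 162 ± 99.3 CPM in CD4 cells (SD, n = 5 mice).

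**Figure D3:**
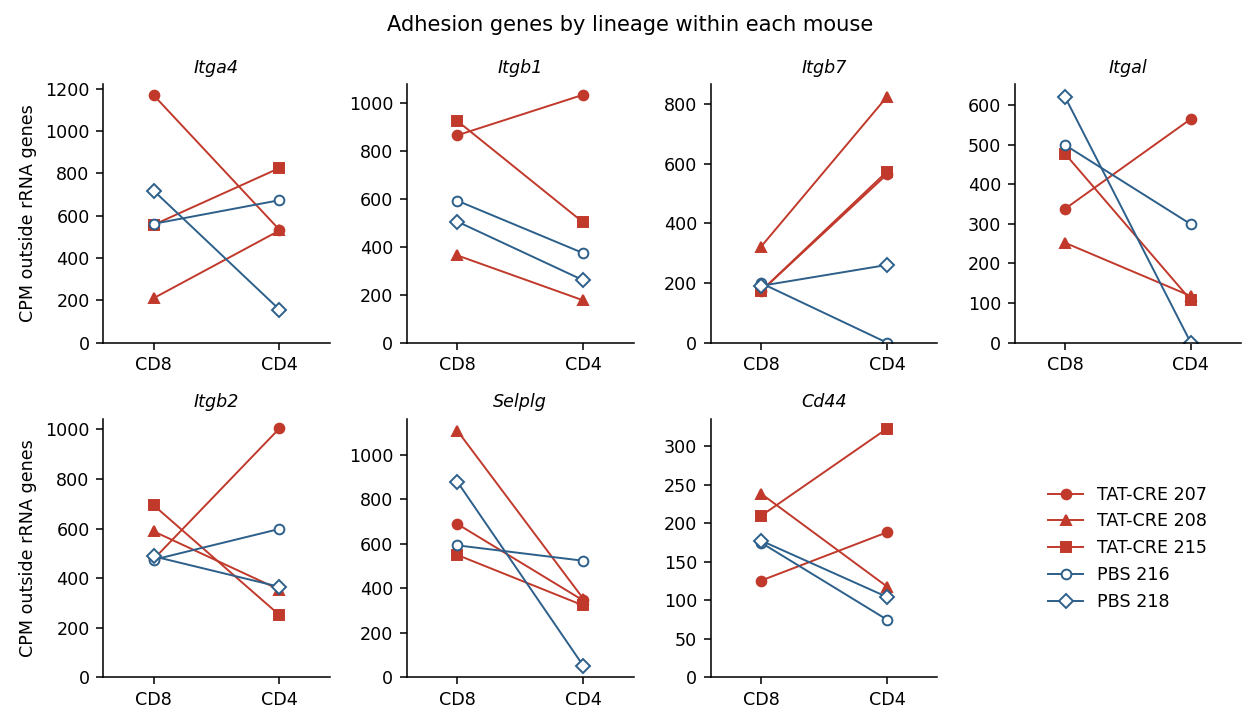
Level of each adhesion gene in CD8 cells (left) and CD4 cells (right) of each mouse, in CPM outside spike-ins and ribosomal RNA genes; a line joins the classes of 1 mouse, with TAT-CRE mice in red and PBS mice in blue. All 5 lines for Selplg run down to the CD4 cells, 4 of 5 do for Itgal, and 4 of 5 run up for Itgb7.

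The partner chains were then looked for in the same cell. Of the 353 cells with an Itga4 UMI, 83 also had Itgb1 but not Itgb7, 30 had Itgb7 but not Itgb1, 15 had both and 225 had neither. For LFA-1, 73 cells had both chains, 173 had Itgal without Itgb2 and 219 had Itgb2 without Itgal. Most cells with an alpha chain thus showed no UMI of its partner at this depth, which does not show that the partner was absent.

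Co-detection of partner chains was close to what their separate shares give. In the 1248 cells thinned to 500 UMIs, with the expected number taken within each mouse, 40 cells had Itga4 and Itgb1 where 35.1 were expected, a ratio of 1.14 (exact Poisson interval 0.814 to 1.55). Itga4 and Itgb7 met in 15 cells where 13.7 were expected (1.09, interval 0.611 to 1.80), 8 of them in TAT-CRE 207, and the ratio was 0.698 without that mouse and 0.903 at 1000 UMIs a cell. Itgal and Itgb2 met in 26 cells where 20.6 were expected (1.26, interval 0.824 to 1.85), with a ratio above 1 in 4 of 5 mice. The partner pairs did not stand out among the 21 pairs of members, whose ratios ran from 0.598 to 1.38 with a median of 1.14, and no interval lay above 1. The pairs share cells and libraries and are given as a description.

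Without thinning, the LFA-1 pair had 73 cells where 51.6 were expected (1.41, interval 1.11 to 1.78), the VLA-4 pair 98 where 81.8 were expected (1.20, interval 0.973 to 1.46), and the median of the 21 pairs was 1.24. All 21 ratios then lay above 1, in cells whose UMI totals differ. The share of cells with both LFA-1 chains after thinning was 1.94% ± 1.46 for TAT-CRE (SD, n = 3) and 2.14% ± 1.19 for PBS (SD, n = 2; exact permutation p = 1). Cells with Itga4 and Itgb1 made up 3.20% ± 2.95 for TAT-CRE and 2.89% ± 2.25 for PBS (exact permutation p = 1).

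The link to Cxcr6 and Klf2 was read in 2 ways. Cxcr6 encodes a chemokine receptor of tissue-resident T cells, and Klf2 a transcription factor of recirculating T cells. In thinned cells, co-detection with Cxcr6 had an interval above 1 for Selplg (66 cells, 50.6 expected, ratio 1.31, interval 1.01 to 1.66, above 1 in 5 of 5 mice) and for Itgal (43 cells, 30.9 expected, 1.39, interval 1.01 to 1.87, above 1 in 3 of 5 mice). Itga4 was at 1.03, and the other members ran from 0.999 to 1.30. With Klf2, Itgb7 stood at 2.03 (15 cells, 7.41 expected, interval 1.13 to 3.34, above 1 in 3 of 5 mice). Cd44 was the lowest with Klf2, at 0.573 on 4 cells (interval 0.156 to 1.47). Ratios above 1 were common, in 6 of 7 members with Cxcr6 (median 1.17) and 5 of 7 with Klf2 (median 1.19). No such ratios were computed for genes outside the members, so whether Selplg, Itgal or Itgb7 stands out was not tested. At 1000 UMIs a cell, where 699 cells remained, the ratio of Selplg with Cxcr6 was 1.07 and that of Itgb7 with Klf2 was 1.57 (interval 0.957 to 2.42), while Itgal with Cxcr6 stayed at 1.38 (interval 1.05 to 1.77).

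**Figure D4:**
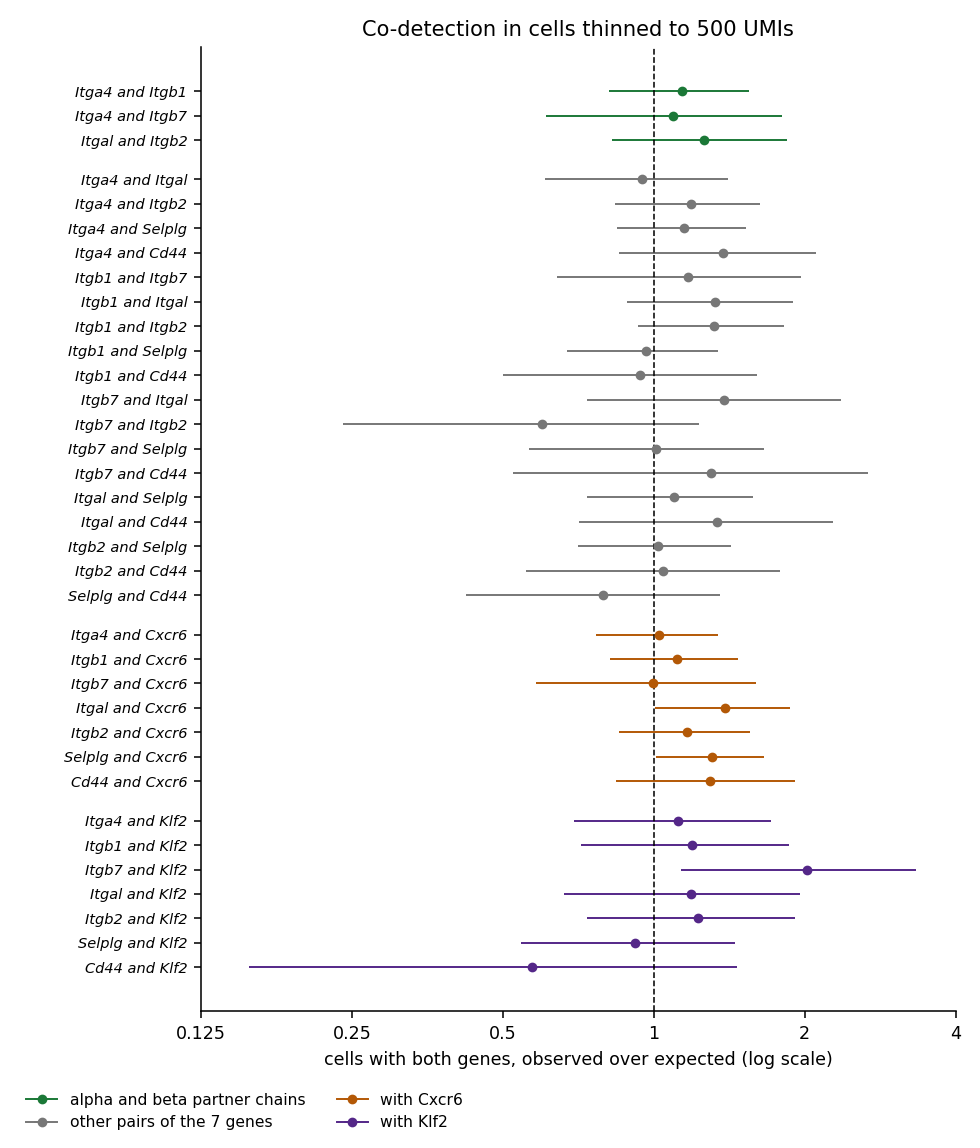
Observed over expected number of cells with both genes (log axis), in 1248 cells thinned to 500 UMIs, with exact Poisson intervals of the observed count (95%); the dashed line marks 1. The 3 partner pairs sit at 1.09 to 1.26 with intervals that include 1, as do those of all other member pairs, and the interval lies above 1 for Itgal and Selplg with Cxcr6 and for Itgb7 with Klf2.

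In the second reading, cells with a Cxcr6 UMI and no Klf2 UMI (Cxcr6 cells) were set against cells with a Klf2 UMI and no Cxcr6 UMI (Klf2 cells) within each mouse. Cxcr6 cells numbered 101, 59 and 63 for TAT-CRE, and 80 and 81 for PBS. Klf2 cells numbered 30, 22 and 26 for TAT-CRE, and 21 and 40 for PBS. Their median depths ran from 1034 to 2979 UMIs in Cxcr6 cells and from 1344.5 to 2882.5 in Klf2 cells. With the mouse as a block, edgeR called 4 of 1138 genes (0.351%; 8.88% had an unadjusted p under 0.05), all higher in Cxcr6 cells: Id2, a regulator of effector lymphocytes, the cytotoxic granule gene Nkg7, Ccl5 and AW112010. Without TAT-CRE 207 it called 1 gene and without TAT-CRE 215 it called 2. None of the 7 members was called.

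Of the members, 6 had a positive and 1 a negative log2 fold change between Cxcr6 and Klf2 cells, with a median of 0.38, against 0.10 over all genes tested, of which 57.6% were positive. Itgb1 was at 0.59 ± 0.31 (SE; interval -0.09 to 1.28; edgeR adjusted p = 0.638) and was higher in Cxcr6 cells in 4 of 5 mice. Itgb2, Selplg and Itgal were at 0.52 ± 0.34, 0.48 ± 0.29 and 0.34 ± 0.33. Itgb7 was at -0.51 ± 0.41 (SE; interval -1.41 to 0.39; edgeR adjusted p = 0.796), at means of 241 ± 127 CPM in Cxcr6 cells and 337 ± 77.4 CPM in Klf2 cells (SD, n = 5 mice), and was lower in Cxcr6 cells in 4 of 5 mice. Cd44 had a fitted value of 0.15 ± 0.49 although it was lower in Cxcr6 cells in 4 of 5 mice, at means of 272 ± 77.8 CPM in Cxcr6 cells and 306 ± 175 CPM in Klf2 cells.

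Itga4 differed between Cxcr6 and Klf2 cells in opposite directions in the 2 groups of mice. In Cxcr6 cells it stood at 1338, 296 and 655 CPM in TAT-CRE mice and at 748 and 617 CPM in PBS mice. In Klf2 cells it stood at 746, 88.0 and 254 CPM in TAT-CRE mice and at 1000.5 and 1016 CPM in PBS mice. It was thus higher in Cxcr6 than in Klf2 cells in all 3 TAT-CRE mice and lower in both PBS mice. Opposite signs of this kind were seen for 5.36% of the 1138 genes tested, and for 4.51% of the 443 genes tested within CD8 cells. The Klf2 values of TAT-CRE 208 and 215 rest on 2 and 7 UMIs. Over the 5 mice the log2 fold change was 0.38 ± 0.34 (SE; edgeR adjusted p = 0.810). A class-by-group term, fitted after this pattern had been seen, was 1.73 ± 0.48 for Itga4 (SE; interval 0.66 to 2.79) and did not pass over all genes tested (edgeR adjusted p = 0.998).

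The balance of the beta chains was also set against these classes. The Itgb1 share of Itgb1 plus Itgb7 UMIs was 73.0% ± 15.2 in Cxcr6 cells and 56.2% ± 14.99 in Klf2 cells (SD, n = 5 mice), higher in Cxcr6 cells in 4 of 5 mice. The mean within-mouse difference of 16.7 percentage points is given as a description (two-sided exact sign-flip permutation p = 0.125), since 5 mice cannot reach 0.05 in this test. TAT-CRE 215 went the other way, at 67.6% in Cxcr6 cells and 71.4% in Klf2 cells.

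Within CD8 cells the 2 classes were smaller (12 to 66 Cxcr6 cells and 8 to 16 Klf2 cells a mouse), and 5 members could be tested. None was called, against 2 of 443 genes (0.451%), AW112010 (edgeR adjusted p = 0.0268) and Id2 (edgeR adjusted p = 0.0140). Both values come from an adjustment that also held the class-defining genes. An unadjusted p under 0.05 was seen for 8.35% of the 443 genes. The count called was 0 without TAT-CRE 215 and 4 without TAT-CRE 207 or TAT-CRE 208. All 5 log2 fold changes were positive, as were those of 54.4% of genes, and ran from 0.12 ± 0.31 for Selplg to 0.94 ± 0.56 for Itgb2 (SE; edgeR adjusted p = 0.770). Itgb7 was lower in Cxcr6 than in Klf2 cells in 4 of 5 mice here too, at 71.4, 919 and 25.2 CPM in the Cxcr6 cells of TAT-CRE mice and 45.8 and 108 CPM in those of PBS mice, against 431, 424 and 486 CPM and 358 and 148 CPM in the Klf2 cells. TAT-CRE 208 was the exception. All of these values rest on few UMIs: 7, 11 and 1 in the Cxcr6 cells of TAT-CRE mice and 2 and 9 in those of PBS mice, against 11, 5 and 8 and then 6 and 5 in the Klf2 cells.

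**Figure D5:**
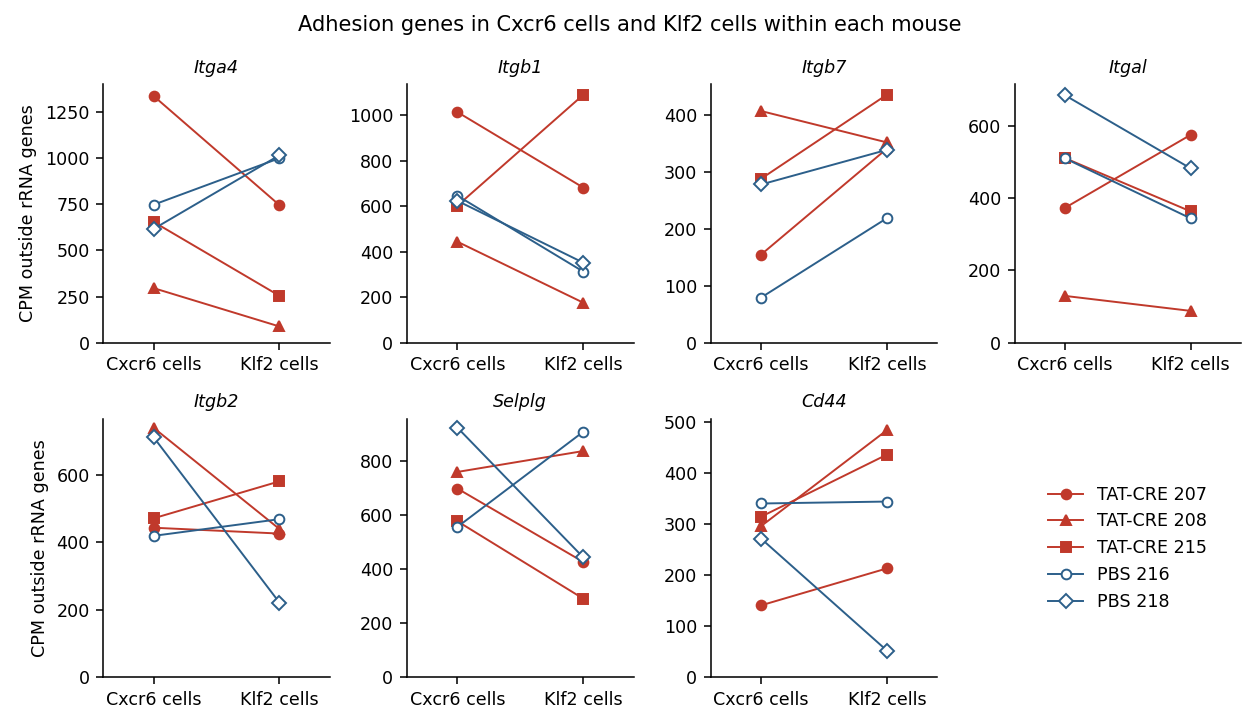
Level of each adhesion gene in Cxcr6 cells (left) and Klf2 cells (right) of each mouse, in CPM outside spike-ins and ribosomal RNA genes; a line joins the classes of 1 mouse, with TAT-CRE mice in red and PBS mice in blue. For Itga4 the 3 TAT-CRE lines run down and both PBS lines run up, and for Itgb7 4 of 5 lines run up to the Klf2 cells.

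The classes were also described by sums of markers, 2 of which hold a gene that defines the classes. The summed level of 6 naive or central memory markers, which include Klf2, was 676 to 703 CPM in Cxcr6 cells and 3189 to 6283 CPM in Klf2 cells. Klf2 alone averaged 1921 CPM of the mean sum of 4670 CPM in Klf2 cells. The 6 tissue-resident markers, which include Cxcr6, summed to 3872 to 5401 CPM in Cxcr6 cells and 145 to 725 CPM in Klf2 cells. Cxcr6 alone averaged 3429 CPM of the mean sum of 4625 CPM in Cxcr6 cells. Each of these genes is at 0 in the other class by definition, so that part of the gaps was fixed in advance. Natural killer markers summed to 18.5 to 487 CPM in Cxcr6 cells and 0 to 195 CPM in Klf2 cells, with Ncr1 at 0 in both. The part of these in the members' values was not tested.

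A wider list of 68 adhesion genes, the 7 members left out, was read in the same fits. Of these, 61 had a UMI, and 0 of the 42, 38, 17, 23 and 12 that could be tested were called by edgeR between TAT-CRE and PBS mice, in CD8 cells between TAT-CRE and PBS mice, between CD8 and CD4 cells, between Cxcr6 and Klf2 cells, and in the last within CD8 cells. Between TAT-CRE and PBS mice their median log2 fold change was -0.04, against 0.00 over all genes. Among 27 genes of integrin activation and the cytoskeleton link, 24 were tested, 14 with a positive value. The leading ones were Coro1a, an actin regulator of leukocytes, at 943 ± 67.7 CPM in TAT-CRE mice and 919.9 ± 99.2 CPM in PBS mice, the small GTPase gene Rap1b, which switches LFA-1 to its active form, at 535 ± 139 and 595 ± 45.9 CPM in the same order, and the adaptor gene Fyb at 582 ± 79.5 and 489 ± 42.0 CPM.

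Of 14 other integrin chains, Itga1, Itga6 and Itgb3 were the highest, and these 3 alone could be tested. Itga1, the alpha chain of a collagen receptor with beta1, stood at 123 ± 48.0 CPM in TAT-CRE mice and 128 ± 34.5 CPM in PBS mice. In Cxcr6 cells Itga1 was at 359, 111 and 183 CPM in TAT-CRE mice and 238 and 210.2 CPM in PBS mice. In Klf2 cells it was at 63.9, 0 and 0 CPM in TAT-CRE mice and 31.3 and 13.0 CPM in PBS mice. The measured value was higher in Cxcr6 cells in each mouse, but its counts were too low for the fit and no test is given. A count of 0 in Klf2 cells allows up to 132 CPM in TAT-CRE 208 and 109 CPM in TAT-CRE 215 (3 counts). For TAT-CRE 208 that is above the 111 CPM of its Cxcr6 cells, so its direction is not settled. This pattern was picked out after its values were seen, and the share of genes with such a pattern was not counted. Itgae, the alpha chain of the epithelial-type integrin with beta7, had 23 UMIs in 13 cells.

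Among ligands and junction proteins, Cd47, Cd2 and Cd6 were the highest, at means of 414, 378 and 253 CPM over the 5 mice. Among selectin pathway genes, Spn, which encodes the sialomucin CD43, stood at 449 ± 52.0 CPM in TAT-CRE mice and 436 ± 89.9 CPM in PBS mice. Tpst2, a tyrosine sulfotransferase of the kind that modifies PSGL-1, stood at 168 ± 87.0 CPM in TAT-CRE mice and 176 ± 18.6 CPM in PBS mice.

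The genes whose levels ran most like those of each member were read over 15 profiles (5 mice, each split into Cxcr6 cells, Klf2 cells and cells with neither), among 1880 genes with a mean of at least 100 CPM. Profiles of a mouse share a library, so the correlations are a description with no p. Itga4 was closest to Cst7 (Pearson r = 0.93), which encodes cystatin F of cytotoxic granules, and to Sorl1 (0.90). Itgal was closest to Eif3a (0.88) and Ccdc124 (0.87), Selplg to Hnrnpa2b1 (0.86) and Rala (0.85), and Itgb1 to Smc1a (0.83) and Rab2a (0.82). Itgb2 was closest to Gimap9 (0.80) and B4galnt1 (0.74), Itgb7 to Yeats4 (0.79) and Csk (0.74), and Cd44 to Map4k2 and Stk24 (both 0.79). Among the members, Itga4 ran most like Itgal (0.72) and least like Cd44 (-0.65), and its partners Itgb1 and Itgb7 were at 0.42 and -0.48.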

How the data were processed

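The authors deposited whole-number UMI counts for every gene in each well, with no normalization. The submitters' processing notes name bcl2fastq 2.15.0.4 and mm10; of aligner, annotation and strand, nothing is given in the sources used here. A further table of the authors holds the count of cells sorted into a well (380 wells with 1 cell and 4 empty wells a plate). The members, lists and tests were chosen with earlier results of these data known.

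Kept cells were wells with 1 cell, no fewer than 400 UMIs without spike-ins and a mitochondrial share of 30% or less; sorting 1 cell a well stood in for doublet calling. The same 384 cell barcodes were used on every plate. All wells together held 776405, 395090 and 679626 UMIs for TAT-CRE 207, 208 and 215, against 617245 and 857632 for PBS 216 and 218. Counts were summed per mouse, or per mouse and class, and tested with edgeR 4.0.16 (quasi-likelihood, TMM, filterByExpr) in R 4.3.3, with Benjamini-Hochberg adjustment over all genes tested and the mouse as a block between classes, since both classes come from the same mice. Between classes, the genes that define them stayed in the fit and its adjustment. They were left out only of the counts of genes tested and called. They differ between the classes by definition, which can lower the adjusted p-values of other genes. Replicates are the mice the labels number, so p-values measure the spread between these libraries.

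Named genes were the 7 members, the 3 highest genes of each sublist, and for each member the 2 genes with the highest correlation of log2(CPM + 10). One gene that this rule names is not reported here. In a test on simulated data, edgeR recovered 97% of 200 genes changed by a log2 fold of 2 between TAT-CRE and PBS mice (6341 genes), with 4 false calls. The changed genes were drawn from those with higher counts, and the same spread between mice was set for all genes. Smaller changes, such as those of the members, were not simulated. Shares and co-detection were computed in Python 3.11.15. Alternatives were DESeq2 1.42.0, its size factors in edgeR, no filter on low counts, no ribosomal RNA genes, no mitochondrial limit, minimums of 200 and 800 UMIs, thinning to 250, 1000 or not at all, classes made after thinning, no block, and each mouse left out. The class-by-group term was added after the data were seen.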

Additional observations from a re-analysis of the deposited data

Results flagged for a closer look

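Itga4 was picked out because its difference between Cxcr6 and Klf2 cells had one sign in every TAT-CRE mouse and the opposite sign in every PBS mouse. The mean within-mouse difference, Cxcr6 minus Klf2 cells, was 400.2 ± 192 CPM in TAT-CRE mice (SD, n = 3) and -326 ± 104 CPM in PBS mice (SD, n = 2), 726 CPM apart. This separation of the groups is what picked the gene out, so a permutation of the mice adds nothing to it, and 5.36% of the 1138 genes tested had such opposite signs. The class-by-group term of the edgeR fit was 1.73 ± 0.48 on the log2 scale (adjusted p = 0.998). Within CD8 cells the differences were 590.1 ± 90.9 CPM in TAT-CRE mice and -217 ± 227 CPM in PBS mice, 807 CPM apart (4.51% of the 443 genes tested had opposite signs), with a class-by-group term of 2.49 ± 1.01 (edgeR adjusted p = 1). The CD8 Klf2 cells of TAT-CRE 215 held 0 Itga4 UMIs and those of TAT-CRE 208 held 1. Both comparisons use largely the same cells, and the part of the depth of TAT-CRE 208 was not tested.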

How the results depend on the processing

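No member was called under any alternative except Selplg between CD8 and CD4 cells with no filter on low counts (1 member called). There its log2 fold change was 2.06 (edgeR adjusted p = 0.0213, range over alternatives 0.0213 to 0.842), and those of the other members tested rose as well. Counts of genes called moved more. DESeq2 called 1 gene between TAT-CRE and PBS mice, 9 between CD8 and CD4 cells, 14 between Cxcr6 and Klf2 cells and 5 in the last within CD8 cells. With no filter on low counts edgeR called 8 between TAT-CRE and PBS mice, 1 in their CD8 cells, 57 between CD8 and CD4 cells, 29 between Cxcr6 and Klf2 cells and 14 within CD8 cells. A minimum of 800 UMIs gave 2 between Cxcr6 and Klf2 cells, and classes made after thinning gave 1 within CD8 cells. Leaving out 1 mouse gave 1 to 6 between Cxcr6 and Klf2 cells and 0 to 4 within CD8 cells. The cause was not tested.

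No paired analysis was possible between TAT-CRE and PBS mice because their replicate numbers are not shared. Between classes of the same mice, the fit with no replicate block called 2 genes between CD8 and CD4 cells, 4 between Cxcr6 and Klf2 cells and 2 within CD8 cells, with 0 members in each, so it changed no call; Selplg was at 1.25 without the block (edgeR adjusted p = 0.229).

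Several differences that no test called turned in sign. Leaving out 1 mouse, log2 fold changes between TAT-CRE and PBS mice ran from -0.80 to 0.073 for Itga4, -0.33 to 0.47 for Itgb7, -0.16 to 0.20 for Itgb2 and -0.20 to 0.083 for Selplg. In CD8 cells they ran from -0.70 to 0.45 for Itga4, -0.15 to 0.29 for Itgb7, -0.23 to 0.33 for Selplg and -0.069 to 0.32 for Cd44. Between CD8 and CD4 cells they ran from -0.20 to 0.64 for Itga4 and -0.11 to 0.59 for Itgb2, and between Cxcr6 and Klf2 cells from -0.33 to 0.32 for Cd44. Within CD8 cells, Cxcr6 against Klf2, they ran from -0.22 to 0.88 for Itgb1 and -0.05 to 0.39 for Selplg. Between TAT-CRE and PBS mice, the difference in the Itgb1 share of Itgb1 plus Itgb7 UMIs ran from -2.86 to 9.41 percentage points. It was -0.045 with a minimum of 800 UMIs.

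With no filter on low counts, TAT-CRE against PBS, Itgb7 was at -0.0023, and in CD8 cells Selplg was at -0.041 and Cd44 at -0.016. With no mitochondrial limit Itgb2 was at -0.047. With a minimum of 800 UMIs, Selplg was at -0.099 and Cd44 at -0.17 in CD8 cells, and Selplg at -0.020 between Cxcr6 and Klf2 CD8 cells.

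Of the differences in the share of cells with a UMI, TAT-CRE minus PBS in percentage points, thinning to 250 UMIs turned those of Itgb7 (0.995), Itgal (0.471) and Itgb2 (-0.360). Thinning to 1000 turned those of Itga4 (0.494) and Itgb7 (0.856), and no thinning those of Itgb2 (-1.01) and Selplg (-3.58). Leaving out 1 mouse, the range was -7.31 to 0.453 for Itga4, -0.303 to 4.68 for Itgb1, -3.91 to 3.57 for Itgb7, -3.12 to 3.22 for Itgb2 and -1.01 to 3.18 for Selplg.

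With 3 mice against 2, members' intervals between the groups spanned about 1 to 1.6 log2 units over all cells. In CD8 cells each member's interval was wider, such as -1.035 to 1.19 for Itga4. CD4 and Klf2 classes of 8 to 40 cells a mouse left single-digit UMI counts for several members. Differences within those limits were not detectable at this depth.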
